A study of Homo sapiens with 3 samples.

Results

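The comparison described here sets RNA-seq read counts of a USP39 knockout, USP39-KO, against those of control cells. Genes with at least 100 counts in 1 or both of these libraries were taken, 10080 of the 22827 genes in the table (44.2%). They held 99.49% of control counts and 99.53% of USP39-KO counts. All libraries came from cells labelled Hep3B, a human line derived from hepatocellular carcinoma. Each genotype had 1 library: the control, USP39-KO and a knockout of SIRT7 (SIRT7-KO), which is given beside the comparison and shares its control. The labels name no treatment, guide or editing method, and do not say whether a knockout was a clone or a pool of cells. The libraries totalled 19427940, 16630636 and 16151522 counts, in the order control, USP39-KO and SIRT7-KO, which is kept below.

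USP39 carries a ubiquitin protease fold that lacks the catalytic residues of its family. It is known as the human counterpart of yeast Sad1 and acts in pre-mRNA splicing, where it helps to hold the U4/U6.U5 tri-snRNP together and to bring it to the assembling spliceosome. The tri-snRNP carries the small nuclear RNAs that form the catalytic centre. Because counts were summed over whole genes, they report transcript levels and do not show how transcripts were spliced.

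Levels are given as CPM, the count of a gene scaled to a common library size, always in the order control, USP39-KO, SIRT7-KO. A ratio is USP39-KO over control on the log2 scale with a prior of 0.5 counts. Each interval is the exact 95% interval of the ratio of the 2 counts and covers counting error only. With 1 library a side, the spread between cultures is unknown, so no test was made and every difference describes these libraries. A gene is called higher or lower at 2-fold (log2 ratio of 1 or more in size) or at 1.5-fold (0.585 or more in size) where its interval also excludes 0.

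USP39 itself (ENSG00000168883; chromosome 2, 85602856 to 85649282, plus strand, in GENCODE 29 on GRCh38, the source of all gene positions below) had 1829, 1066 and 1511 reads, or 94.1, 64.8 and 92.6 CPM. It was lowest in the library named for it, at 68.8% of the control (log2 ratio -0.54, interval -0.65 to -0.43), and transcript remained in USP39-KO. Whether the protein was lost cannot be read from these counts. Of 24 further proteins of the U4/U6 particle and the tri-snRNP, 0 passed the 1.5-fold rule in either direction, and their ratios ran from -0.11 in PPIH, a cyclophilin of the U4/U6 particle, to 0.29 in SART1, which takes part in tri-snRNP recruitment.

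The labelled cell type was checked against its markers. Among 26 hepatocyte markers, 12 had no read in any library and 18 had under 10 reads in all 3. ALB, AFP, TTR, APOB and GPC3 were among those at 0. Enzymes of the urea cycle were present in all 3 libraries, with 1369.5, 1347 and 1371 CPM for CPS1 and 2932, 3135 and 2711 CPM for ASS1. The liver transcription factor HNF4A was low and differed between libraries (5.82, 1.76 and 0.429 CPM). A listed 0 is not in itself evidence of silence, since the cholesterol enzymes EBP and NSDHL were also at 0 in all 3 libraries. Placental genes, listed after the values were seen, were partly present. The glycoprotein hormone alpha subunit CGA had 304, 590.3 and 522 CPM, and placental alkaline phosphatase ALPP had 188, 148 and 142 CPM, whereas 31 of 64 such genes, among them CSH1, HLA-G and KISS1, had under 10 reads everywhere. Liver markers with some reads but few, such as APOA1 (2, 2 and 0 reads) and SERPINA1 (2, 0 and 1 reads), go against the liver label. CPS1 and ASS1 do not. The cells are called by that label only as a name. Blood cell markers summed to 1.24 to 1.88 CPM, with PTPRC, CD3D, CD79A and HBB at 0. Endothelial markers summed to 71.1 to 128 CPM, nearly all from ESAM and EGFL7, and KDR and EMCN were at 0. Fibroblast and stellate markers summed to 117 to 140 CPM, nearly all from COL1A1 and PDGFRB, and COL1A2 was at 0. Epithelial markers summed to 2789, 2238 and 2429 CPM, mainly the keratins KRT8 and KRT7. Of these 12 markers, 5 (GRHL2, ESRP1, CLDN3, CLDN4 and KRT19) were at 0 in all 3 libraries. CDH1 had 24, 28 and 8 reads and EPCAM 37, 21 and 7, while KRT18, ESRP2 and CLDN7 were present. These sums come from the deposited counts, and their part in the differences below was not tested.

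Most transcripts were close to their control level in USP39-KO: 75.29% of the 10080 genes lay within 1.2-fold and 94.35% within 1.5-fold. At 2-fold, 43 genes (0.427%) were higher and 116 (1.15%) lower. At 1.5-fold, 189 (1.88%) were higher and 381 (3.78%) lower. Lower genes thus outnumbered higher ones at both sizes. The count minimum, which is set on unscaled counts, bears on this: 357 genes reached 100 counts only in the control, the deeper library, and 61 only in USP39-KO. Of the 2-fold calls, 75 of 116 lower genes had under 100 counts in USP39-KO and 18 of 43 higher genes had under 100 in the control. Among the 9662 genes with at least 100 counts in both libraries, 25 were higher and 41 lower at 2-fold. Just inside the minimum, at a highest count of 100 to 109, 127 genes held 2 higher and 7 lower at 2-fold, and just outside it, at 90 to 99, 141 genes held 4 higher and 15 lower.

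**Figure D1:**
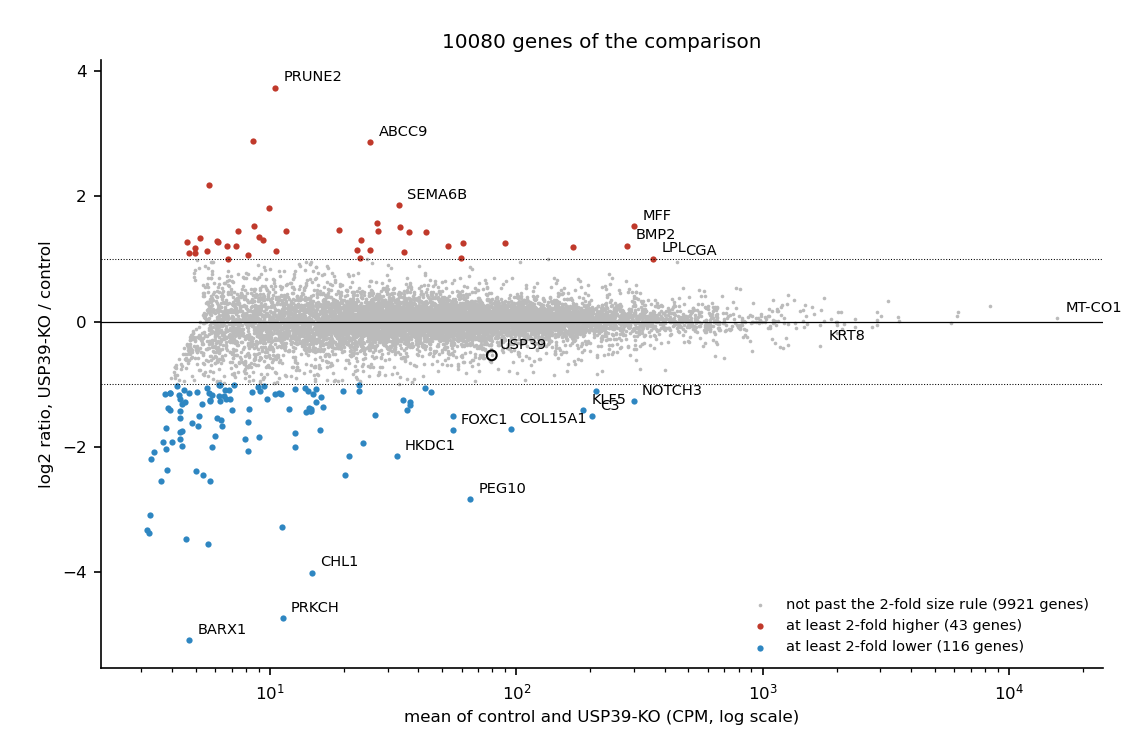
Each point is 1 of the 10080 genes, plotted by its mean CPM in control and USP39-KO (log axis) and its log2 ratio of USP39-KO to control, with dotted lines at 2-fold. Red points are the 43 genes at least 2-fold higher, blue points the 116 at least 2-fold lower, and the circle marks USP39. Above about 1000 CPM the points lie close to the line at 0, and most genes past 2-fold sit at low CPM.

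Well-counted genes, those with a mean of at least 1000 counts in the compared libraries, numbered 4429. Of these, 7 were higher and 8 lower at 2-fold, and 33 and 48 at 1.5-fold, which is a more even split than over all genes. MFF, a receptor that recruits the fission dynamin to mitochondria and peroxisomes (chromosome 2, 227325151 to 227357836, plus strand), had 155, 446 and 121 CPM and the highest ratio (log2 ratio 1.53, interval 1.47 to 1.59). It was high in USP39-KO alone of the 3 libraries. The others at 2-fold were RNF150 (1.26), the calcium release channel RYR2 (1.25), BMP2 (1.21), the laminin chain LAMA1 (1.19), the cardiac myosin light chain kinase MYLK3 (1.02) and lipoprotein lipase LPL (1.00). On the lower side, the imprinted retrotransposon-derived gene PEG10 led (-2.84), followed by FOXC1 (-1.73), the basement membrane collagen COL15A1 (-1.72), the hemidesmosome integrin ITGB4 (-1.51), complement C3 (-1.51), KLF5 (-1.41), NOTCH3 (-1.28) and FSTL4 (-1.10). SIRT7-KO held PEG10, C3 and NOTCH3 near their control levels, at 0.04, 0.02 and -0.04 on the log2 scale, while KLF5 was lower there too (-2.06).

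Counted in reads rather than ratios, the largest gains went to abundant transcripts with small ratios. The mitochondrial-genome gene MT-ND4, a complex I subunit, had 7655, 9069.8 and 7154 CPM (log2 ratio 0.24). MT-CYB, the cytochrome b of complex III, had 2858, 3591 and 2244 CPM (0.33), and all 13 protein-coding genes of that genome lay above 0. Nuclear genes with large gains were the folate receptor FOLR1 (1541, 2010.2 and 1467 CPM), the transferrin receptor TFRC (1082, 1454 and 638 CPM) and the glycyl-tRNA synthetase GARS1 (639, 926 and 367 CPM). TFRC and GARS1 were lowest in SIRT7-KO. The largest losses were in the keratin KRT8 (1939.6, 1481 and 1603 CPM), GAPDH (2623, 2252 and 2708 CPM), the scaffold protein AHNAK (1380.3, 1030.2 and 1199 CPM) and the dynein motor DYNC1H1 (1336, 1009 and 909 CPM). COL7A1, the anchoring fibril collagen, and COL5A1, a fibrillar collagen, followed, with ratios of -0.37 and -0.58. None of the 6 genes named in these losses reached 1.5-fold, and COL5A1 came closest, at 1.49-fold.

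Gene families were then read, and 2511 of the 10080 genes belonged to at least 1 of 66 lists, not counting the 5 lists made after the values were seen. The count minimum bears on every list count as on the totals, since a gene can enter only through the library where it is high. All list counts stand beside 1.88% higher and 3.78% lower over all genes at 1.5-fold. Secreted and matrix proteins differed most often: of 199 genes, 36 (18.1%) were lower and 10 (5.03%) higher at 1.5-fold, with a median ratio of -0.12 against 0.01 over all genes. Signalling and cell structure genes had 29 of 303 lower (9.57%) and 12 higher (3.96%), and surface proteins had 49 of 561 lower (8.73%) and 27 higher (4.81%). Metabolic genes had 22 of 339 lower (6.49%) and 12 higher (3.54%). Transcription factors and chromatin genes were balanced, with 32 of 747 higher (4.28%) and 30 lower (4.02%). Cell processes such as replication, mitosis and protein folding had 8 of 491 higher (1.63%) and 16 lower (3.26%), near the shares over all genes. Calls also went with expression level. The fifth of genes with the lowest mean CPM in the compared libraries (1994 genes) held 101 higher and 241 lower at 1.5-fold. The fifth with the highest mean CPM held 17 and 19. Lists were not matched for level, and its part in these shares was not tested.

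**Figure D2:**
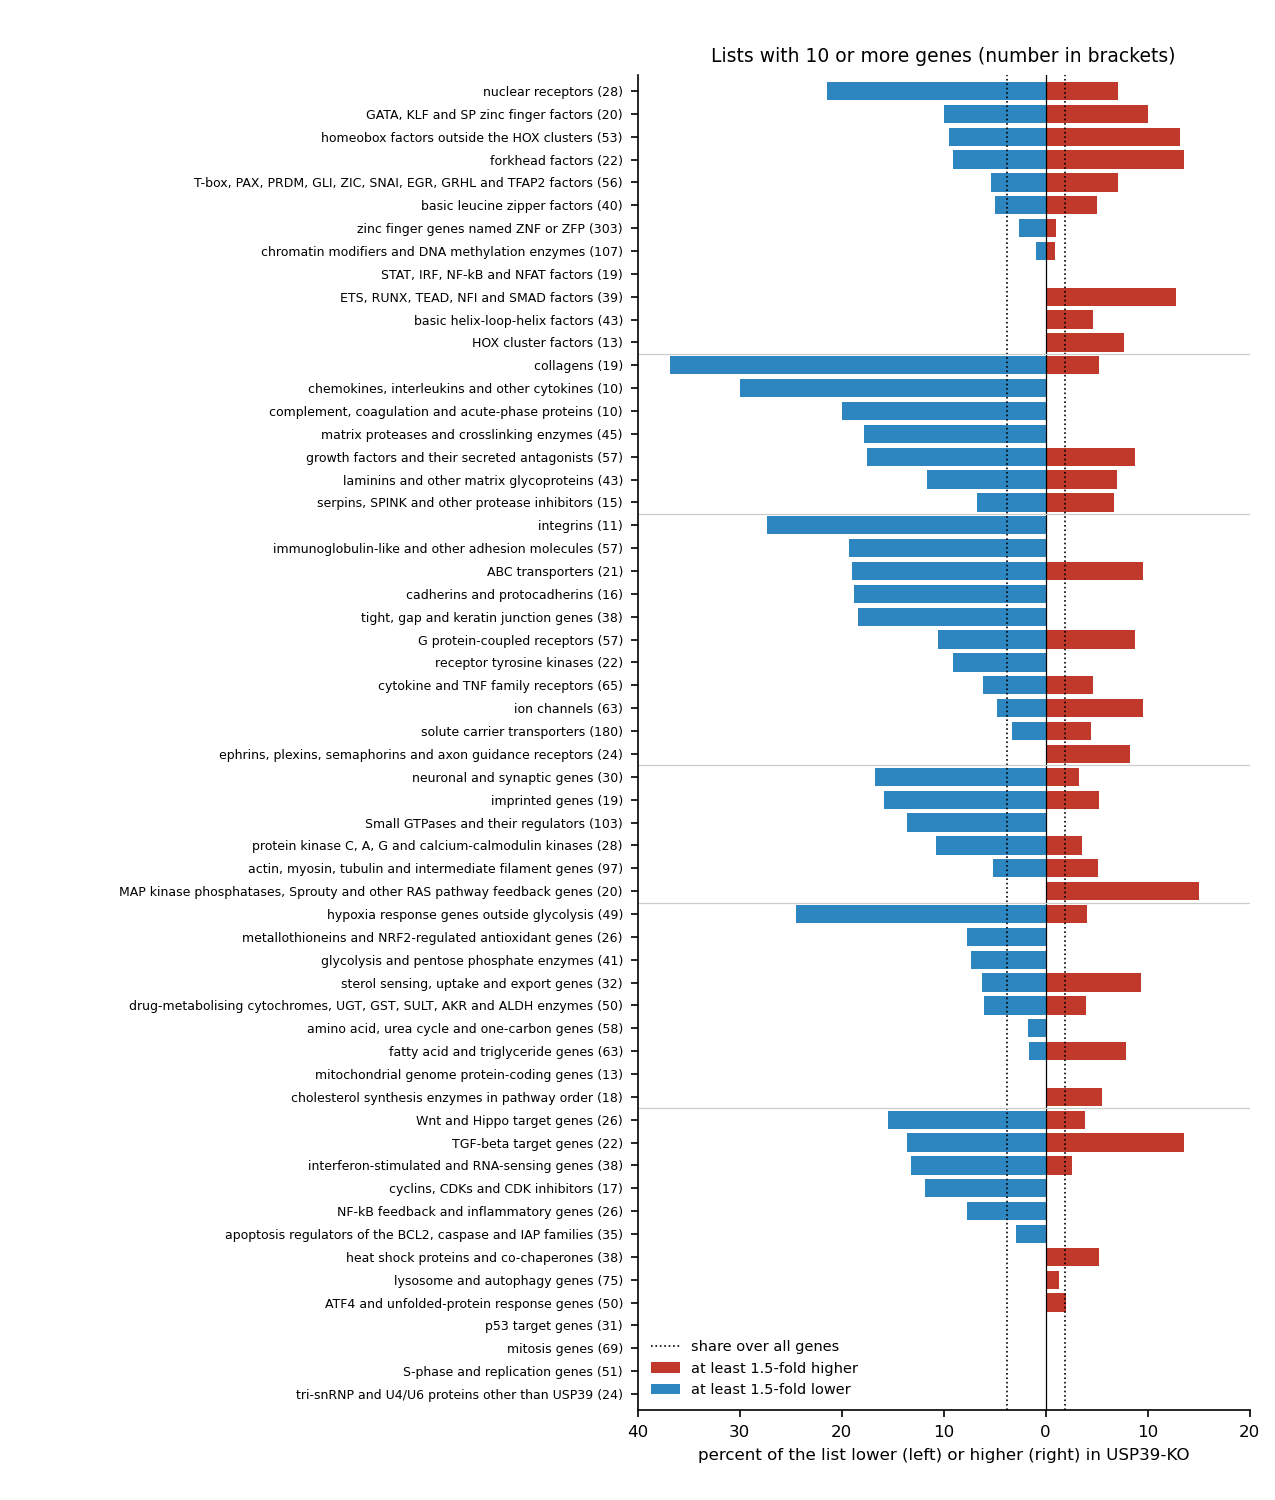
Bars give, for each list with 10 or more genes (number in brackets), the percent at least 1.5-fold lower (blue, left) or higher (red, right) in USP39-KO, and dotted lines give the shares over all 10080 genes (3.78% lower, 1.88% higher). Collagens (36.8% lower), cytokines (30% of 10 genes), integrins (27.3% of 11) and hypoxia response genes (24.5%) reach farthest left.

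Transcription factors differed in mixed directions, family by family. Among 53 homeobox genes outside the HOX clusters, 7 were higher and 5 lower at 1.5-fold. EN2, a midbrain and hindbrain patterning factor, had 39, 152 and 49 reads (log2 ratio 2.19, interval 1.69 to 2.75). DLX3, a factor of placenta, skin and bone, had 428, 784 and 573 reads (log2 ratio 1.11) and was above the control in both knockouts. ZEB2, a repressor of epithelial genes, had 16.7, 28.6 and 17.6 CPM (0.77), and the TALE factor PKNOX1 had 0.83. BARX1, a stomach and jaw patterning factor, had 178, 4 and 0 reads and was at few or no reads in both knockout libraries. DRGX, a sensory neuron factor, had 188, 50 and 7 reads, again highest in the control. The mesenchymal factor HLX had -0.72. HOX cluster genes moved little, with 1 of 13, HOXB6 (0.62), past 1.5-fold, although 11 of 13 lay above 0 (median 0.21).

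Forkhead genes divided. FOXC1, a mesenchyme and eye development factor on chromosome 6, had 84.7, 25.5 and 53.4 CPM (log2 ratio -1.73, interval -1.89 to -1.58), so the control was highest and USP39-KO lowest. FOXF1, FOXC2 and FOXL1 lie close together on chromosome 16 (86510527 to 86582160) and had ratios of 0.65, 0.62 and 0.67. MTHFSD, which lies between FOXF1 and FOXC2, had 0.07, and the flanking genes COX4I1 and FBXO31 had 0.12 and -0.04. The thymic epithelium factor FOXN1 had -0.69.

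Among nuclear receptors, 6 of 28 were lower and 2 higher at 1.5-fold. The thyroid hormone receptor THRB had 115, 9 and 9 reads, low in both knockouts. HNF4A and its paralogue HNF4G went opposite ways: HNF4A had 113, 29 and 7 reads, and HNF4G had 57, 123 and 5 reads. Both were at single-digit counts in SIRT7-KO. The vitamin D receptor VDR was lower in USP39-KO (-0.84) and had a ratio of 0.48 in SIRT7-KO. NR4A3, an immediate early orphan receptor, had 919, 1391 and 653 reads (0.84).

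In the GATA, KLF and SP family, KLF5, an epithelial proliferation factor, had 272, 102 and 65.0 CPM (log2 ratio -1.41, interval -1.49 to -1.33) and its relative KLF4 had 244, 368 and 244 CPM (0.59). GATA2 had 156, 235 and 186 CPM (0.59) and GATA6 had 168, 72 and 62 reads (-0.98). Each pair of relatives thus held 1 higher and 1 lower member in USP39-KO. KLF4 and GATA2 lay just past 1.5-fold and dropped below it when libraries were scaled by their totals. Among the leucine zipper genes, FOS had 0.95. SOX9 had 184, 89 and 237 reads (-0.81), low in USP39-KO and above the control in SIRT7-KO. Other developmental regulators past 1.5-fold were MECOM (-1.49), PRDM1 (-0.86) and the ciliary factor RFX3 (-0.94) on the lower side, and the immediate early gene EGR1 (0.95), ZIC5 (0.85), the p53 relative TP73 (0.81) and TBX1 (0.69) on the higher. Of 303 genes named ZNF or ZFP, 8 were lower (2.64%), led by ZFP3 (-1.76), and 3 higher (0.99%). Of 107 chromatin genes, 1 was higher, CHD5 (0.77), and 1 lower, DNMT3A (-0.59), or 0.935% each way. These shares lay below those over all genes, 3.78% lower and 1.88% higher. None of 19 STAT, IRF, NF-kB and NFAT genes passed.

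**Figure D3:**
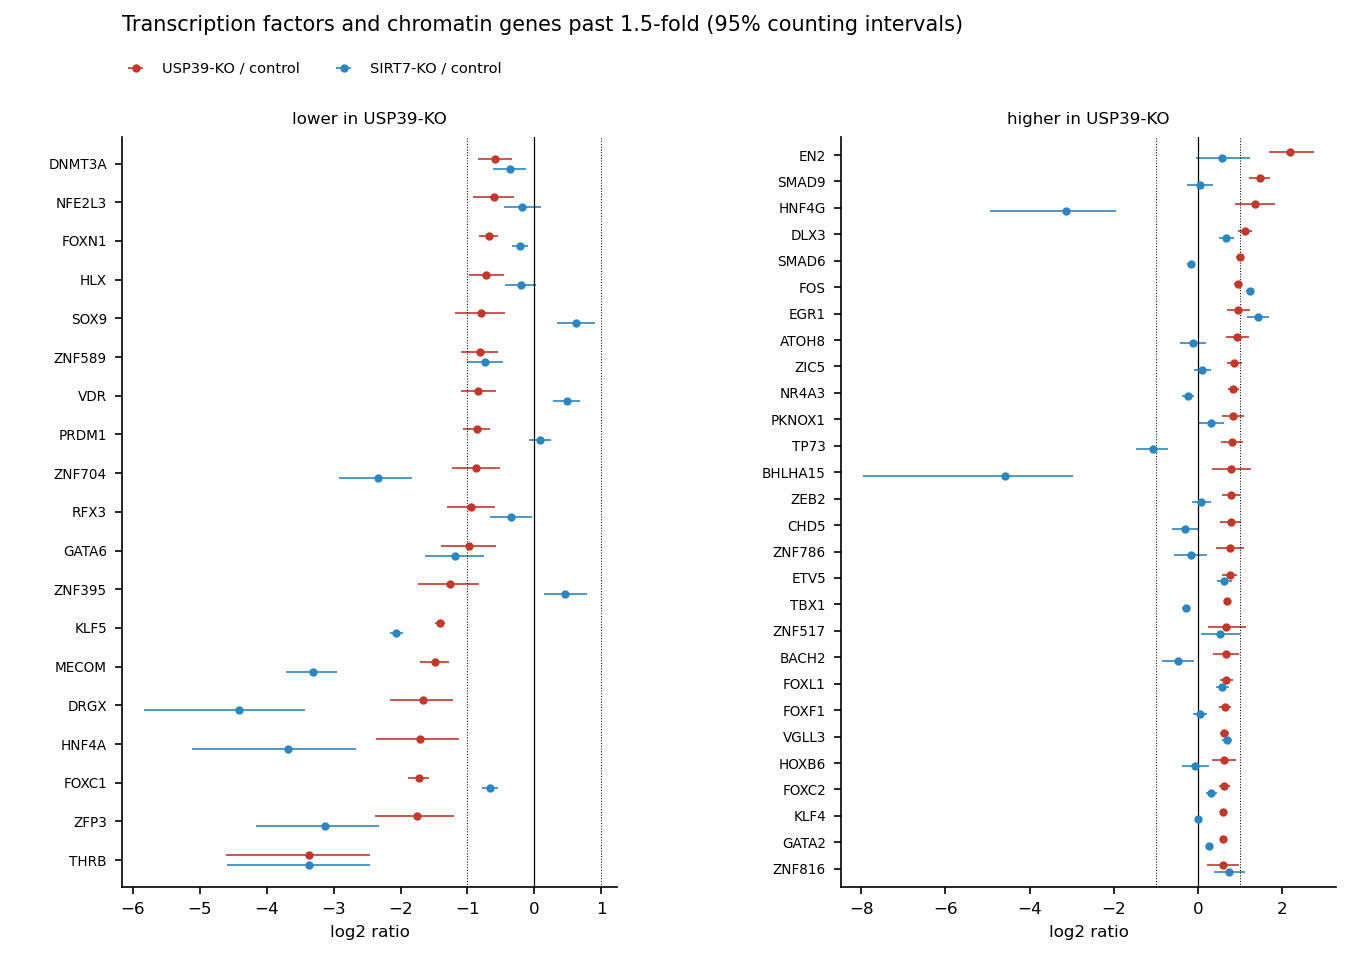
Log2 ratios to the control of named transcription factors and chromatin genes past 1.5-fold in USP39-KO, with 95% counting intervals, for USP39-KO (red) and SIRT7-KO (blue), with dotted lines at 2-fold. BARX1 is left out because it had 0 reads in SIRT7-KO. The 2 ratios of a gene share the control. HNF4G, TP73 and BHLHA15 are among the genes above 0 in USP39-KO and below 0 in SIRT7-KO, and SOX9, VDR and ZNF395 among those with the reverse.

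Genes of the bone morphogenetic protein (BMP) pathway were collected after several of them had been seen among the calls, so their count is a description. BMP ligands signal through SMAD1, SMAD5 and SMAD9, and the inhibitory SMAD6 and SMAD7 are targets that feed back on the pathway. Of 33 genes, 9 were higher and 2 lower at 1.5-fold (median 0.25). The ligand BMP2 (chromosome 20, 6767664 to 6780280, plus strand) had 169.8, 394 and 175 CPM (log2 ratio 1.21, interval 1.15 to 1.27), high in USP39-KO alone. BMP6, another ligand, had 0.16. SMAD9 had 10.2, 28.0 and 10.5 CPM (1.46), while SMAD1 and SMAD5 had 0.25 and 0.05. SMAD6 had 89.6, 178 and 79.7 CPM (0.99) and SMAD7 37.2, 56.5 and 36.6 CPM (0.60). Target genes were uneven: ATOH8 had 0.93, MSX2 0.77, ID2 0.47 and ID3 0.47, but ID1 had 0.06. Of the regulators outside the cell, the activin and BMP antagonist FST had 380, 93 and 44 reads (-1.79), the BMP-binding protein BMPER had 58, 105 and 15 reads (1.09), and the antagonists NOG and CHRD had -0.14 and -0.25. The decoy receptor BAMBI had -0.73. In SIRT7-KO, BMP2, SMAD6, SMAD7 and SMAD9 lay between -0.17 and 0.04, while FST was lower still (-2.85).

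The list of 57 growth factors and secreted antagonists, which also holds BMP2, BMPER and FST, had 10 lower and 5 higher at 1.5-fold. IGFBP3, which binds insulin-like growth factors, had 48.6, 20.4 and 71.5 CPM (log2 ratio -1.26, interval -1.44 to -1.08), low in USP39-KO and highest in SIRT7-KO. The vasodilator peptide ADM had the same order (35.2, 19.4 and 66.8 CPM). NRG1, a ligand of ERBB3, had 156, 55 and 54 reads (-1.26), and its receptor ERBB3 had 142, 39 and 95 reads (-1.61). The platelet-derived growth factor PDGFB (-0.97) and WNT5A (-0.85) were lower, and the stress-responsive factor GDF15 (0.75), CCN2, a matricellular YAP and TGF-beta target (0.77), and TGFB2 (0.62) were higher. Of 10 cytokine genes, IL32, LIF and IL6 were lower (-0.71, -0.79 and -0.88) and none higher.

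The extracellular matrix was lower in many of its parts. Among 19 collagens, 7 were lower at 1.5-fold and 1, COL6A2 (0.68), higher, although the list median was 0.01. COL15A1 had 146, 44.5 and 100.3 CPM (log2 ratio -1.72, interval -1.84 to -1.60), COL12A1, a collagen of fibril surfaces, 183, 101 and 152 CPM (-0.86), and the basement membrane chain COL4A4 35.3, 20.2 and 2.33 CPM (-0.81). The fibrillar COL1A1 was higher (0.31) but under 1.5-fold. Among laminins and other glycoproteins, LAMA1, an embryonic basement membrane chain, had 104, 237 and 64.3 CPM (1.19) and LAMA3, the epidermal chain that binds ITGB4-containing integrins, 174, 69 and 63 reads (-1.09). The mucins MUC16 and MUC1 had -1.12 and -0.70, the integrin ligand NPNT (44.3, 22.2 and 7.29 CPM) was lower too, as was TGFBI (-0.76), while the heparan sulfate proteoglycan SDC2 had 0.70. Proteases and crosslinkers had 8 of 45 lower and 0 higher, led by the metalloprotease ADAM33 (241, 55 and 115 reads; -1.88), and including transglutaminase TGM2 (50.2, 26.6 and 56.1 CPM; -0.92) and the dipeptidyl peptidase CTSC (-1.10). SERPINE2, a thrombin and urokinase inhibitor, had 20.6, 9.24 and 37.5 CPM (-1.16), and the inhibitor PZP was higher (0.96). C3 had 299.8, 105 and 305 CPM, with USP39-KO alone low.

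Adhesion receptors were on the lower side as well, with none of these lists holding a gene past 1.5-fold higher. Among 11 integrins, ITGB4 (81.8, 28.6 and 61.1 CPM; -1.51), ITGA3, a laminin receptor chain (204, 118 and 237 CPM; -0.79) and ITGA1, a collagen receptor chain (-0.64) were lower. ITGB1, the common beta chain, had -0.27. Among 57 immunoglobulin-like and other adhesion genes, 11 were lower. CHL1, a neural adhesion molecule, had 540, 28 and 1 reads. The laminin-binding BCAM had -1.16 and ALCAM 89.7, 46.4 and 71.9 CPM (-0.95). Cadherins had 3 of 16 lower, the desmosomal DSC3 (118, 24 and 56 reads) and the protocadherins PCDH7 (-0.93) and PCDH1 (-0.66). Tight junction, gap junction and keratin genes had 7 of 38 lower, among them the plakin PPL (-0.64), cingulin CGN (-0.90) and the basal keratin KRT17 (282, 164 and 112 CPM; -0.78), which was lower still in SIRT7-KO (-1.33).

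Signalling receptors went both ways. The ephrin receptor EPHB2 had 200, 14 and 22 reads (log2 ratio -3.55, interval -4.49 to -2.82), low in both knockouts, and 20 of 22 receptor tyrosine kinases, among them EGFR (-0.10), stayed within the 1.5-fold rule. SEMA6B, a transmembrane semaphorin, had 280, 859 and 348 reads (log2 ratio 1.85, interval 1.66 to 2.06). The IL-1 receptor accessory protein IL1RAP had 342, 823 and 427 reads and the TNF receptor family member TNFRSF14 77, 179 and 53 reads (1.45). RNF43, a ubiquitin ligase that removes Wnt receptors, had 123, 27 and 14 reads (-1.93), and the Wnt receptor FZD1 had 139, 211 and 159 reads (0.84). AXIN2, a Wnt target, was lower (-0.88), and both AXIN2 and RNF43 were lower in SIRT7-KO too (-1.05 and -2.84). The list of 26 Wnt and Hippo target genes had 4 lower (15.4%) and 1 higher (3.85%) at 1.5-fold. Most of its genes, 16, lay above 0 (median 0.08). Of 57 G protein-coupled receptors, 5 were higher and 6 lower, with the somatostatin receptor SSTR1 (163, 26 and 61 reads; -2.39), the thrombin receptor F2R (21.3, 8.08 and 20.5 CPM; -1.39) and the chemokine receptor CXCR4 (20.8, 7.96 and 24.9 CPM; -1.39) lowest. GPR75 (1.10) and GPRC5B (0.89) were higher.

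Notch pathway genes, also collected after the values were seen, had 3 of 28 lower and 0 higher. The receptor NOTCH3 (chromosome 19, 15159038 to 15200981, minus strand) had 423, 175 and 411 CPM (log2 ratio -1.28, interval -1.34 to -1.21), low in USP39-KO alone. NOTCH1 had 0.01 and NOTCH2 -0.44. The coactivator MAML2 had 137, 29 and 228 reads (-1.98) and the regulator DTX4 239, 66 and 63 reads (-1.61). The ligand JAG1 and the target HES1 were at -0.04 and 0.04, and the target HEY1 at 0.41.

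Among 63 ion channels, 6 were higher (9.52%) and 3 lower (4.76%) at 1.5-fold, beside 4.81% higher and 8.73% lower over all surface genes. Over all genes the shares were 1.88% higher and 3.78% lower. The calcium-activated chloride channel ANO2 had 23.2, 62.8 and 14.9 CPM (1.43), RYR2 35.8, 85.1 and 29.4 CPM (1.25) and the calcium channel subunit CACNB2 78, 153 and 24 reads (1.21). ANO2, RYR2 and CACNB2 were lowest in SIRT7-KO. The nicotinic receptor CHRNA4 had 112, 9 and 12 reads, low in both knockouts. Among ABC transporters, ABCC9, the regulatory subunit of ATP-sensitive potassium channels, had 119, 740 and 149 reads (log2 ratio 2.87, interval 2.59 to 3.17). The drug exporter ABCB1 (148, 44 and 19 reads), the organic anion exporters ABCC3 (49.9, 25.6 and 65.3 CPM; -0.96) and ABCC2 (274, 153 and 357 CPM; -0.84) and the cholesterol exporter ABCA1 (224, 87 and 584 reads; -1.12) were lower. ABCA1 was highest in SIRT7-KO.

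Of 180 solute carriers, 8 were higher (4.44%) and 6 lower (3.33%) at 1.5-fold, beside 1.88% and 3.78% over all genes, so the lower side was near that share. The dopamine transporter SLC6A3 and the neutral amino acid transporter SLC6A19 lie near each other on chromosome 5 and had similar counts: 68, 142 and 17 reads for SLC6A3, and 70, 143 and 14 reads for SLC6A19. Both were highest in USP39-KO and lowest in SIRT7-KO. Between them lie SLC6A18, without reads in the compared libraries, TERT (0.49) and CLPTM1L (0.20). The flanking genes SLC12A7 and LPCAT1 had 0.49 and -0.12. The glutamate transporters SLC1A2 (85, 167 and 215 reads; 1.21) and SLC1A1 (189, 27 and 31 reads; -2.55) went opposite ways. The glucose transporter SLC2A1 had 213, 133 and 183 CPM (-0.68), and the sodium, potassium and chloride cotransporter SLC12A2 had -0.95.

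**Figure D4:**
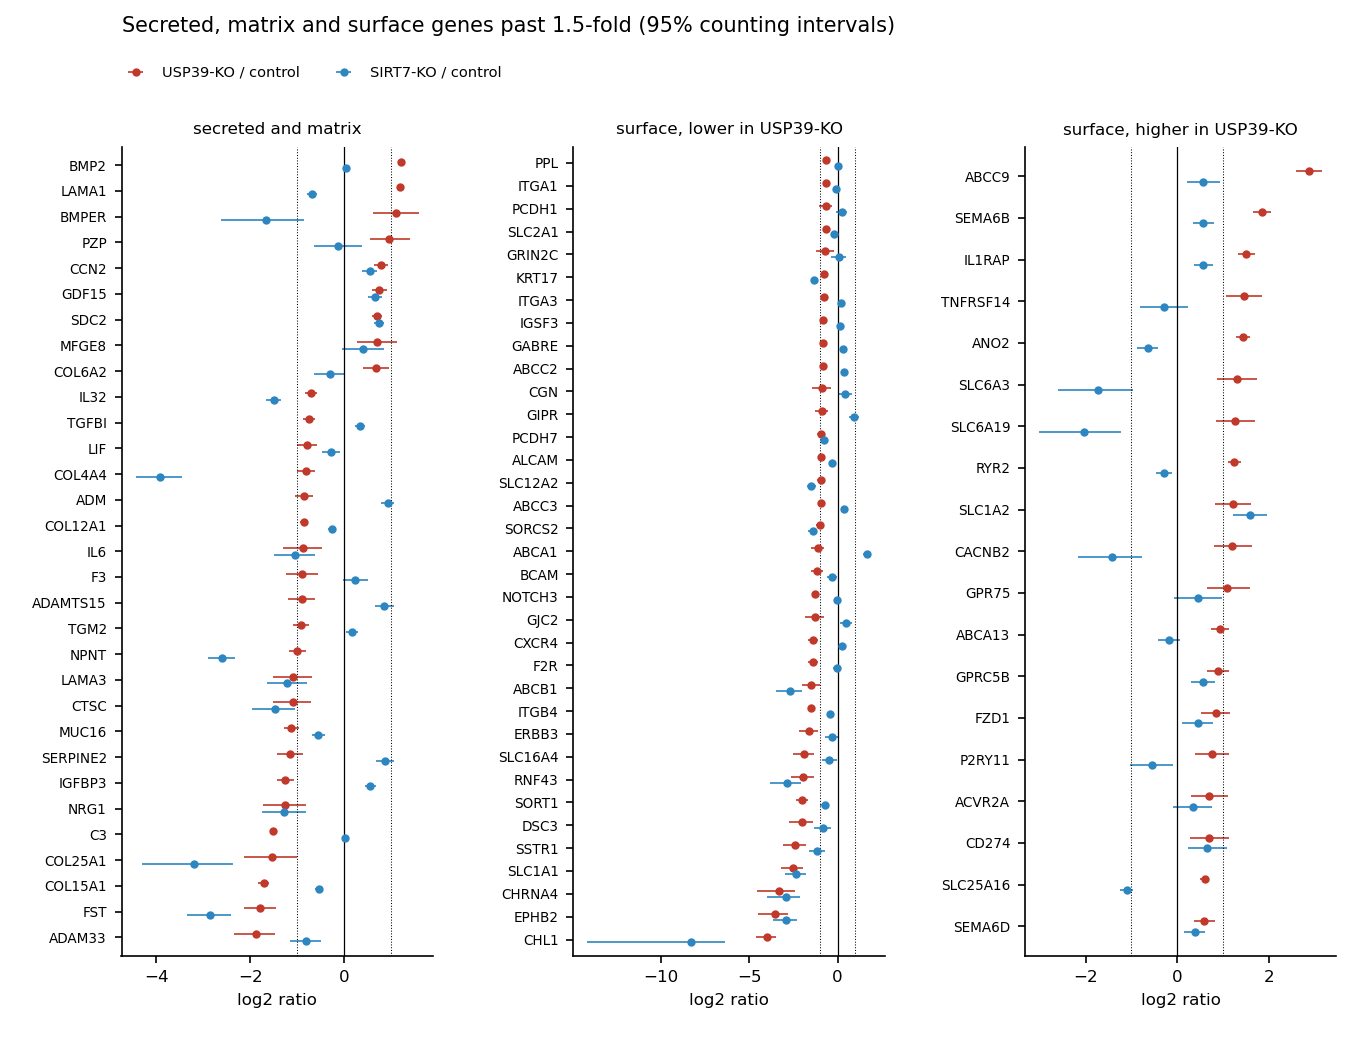
Log2 ratios to the control of named secreted, matrix and surface genes past 1.5-fold in USP39-KO, with 95% counting intervals, for USP39-KO (red) and SIRT7-KO (blue), with dotted lines at 2-fold. Most secreted and matrix genes lie below 0 in USP39-KO, from -1.88 in ADAM33, and the higher surface genes, led by ABCC9 at 2.87, include channels and transporters.

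Inside the cell, small GTPases and their regulators stood on the lower side, with 14 of 103 lower and 0 higher at 1.5-fold. They included the exchange factors FGD4 (274, 64 and 114 reads; -1.85) and ARHGEF40 (-1.42), the atypical GTPase RHOU (458, 151 and 53 reads; -1.36) and the GTPase activator ARHGAP42 (-0.91). RHOA itself had 0.09. Among kinases, PRKCH, a protein kinase C of epithelia, had 422, 13 and 366 reads (log2 ratio -4.73, interval -5.70 to -3.99), with USP39-KO alone low, and the death-associated kinase DAPK1 had 660, 102 and 78 reads (-2.45), low in both knockouts. MYLK, the smooth muscle myosin light chain kinase, was lower (-0.92) and its relative MYLK3 higher (1.02). Feedback genes of the RAS pathway had 3 of 20 higher and 0 lower: EGR1 (9.57, 18.5 and 25.6 CPM), ETV5 (22.2, 37.3 and 34.1 CPM) and the phosphatase DUSP2 (70.6, 111 and 116 CPM), all above the control in both knockouts. Cytoskeletal genes were split 5 and 5. The actin-severing protein SCIN (1.58) and the microtubule protein MAP1B (1.53) were higher, and EPS8L3 (396, 34 and 9 reads), the membrane skeleton protein ADD3 (665, 127 and 8 reads) and the neurofilament relative INA (739, 162 and 557 reads) lower.

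Hypoxia response genes outside glycolysis had 12 of 49 lower and 2 higher at 1.5-fold (median -0.20). Many of these genes are known as targets of the HIF factors, which bind a short core sequence when oxygen is low. The list also holds the factor genes HIF1A, EPAS1 and ARNT and regulators of the factors such as VHL, HIF1AN and EGLN2. CA9, a carbonic anhydrase, had 147, 50 and 146 reads (-1.31), CXCR4 -1.39, the liprin PPFIA4 176, 65 and 189 reads (-1.19), NDRG1 401, 237 and 646 CPM (-0.76), the prolyl hydroxylase EGLN2 -0.73 and the lysyl oxidase LOXL2 -0.59. CA12 (0.65), another carbonic anhydrase, and JMJD6 (0.59) were higher, and VEGFA had 0.11. Transcripts of the factor genes HIF1A and EPAS1 had ratios of -0.49 and 0.25. In SIRT7-KO, CA9, CXCR4, LOXL2, PPFIA4, ZNF395, IGFBP3, NDRG1 and ADM lay above the shared control, at 0.24 to 0.92. The other lower genes, SLC2A1, INSIG2, AK4 and EGLN2, lay below it there too, at -0.22, -0.34, -0.53 and -0.83. Among glycolysis genes the hexokinase-like HKDC1 was lowest (1036, 198 and 29 reads), the bifunctional enzyme PFKFB4 had -0.68, and 3 of 41 were lower and 0 higher. The other lower one was SLC2A1, which is also counted among the 12 lower hypoxia genes, so these lists overlap.

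The promoters of 4 of these lower genes are shown because they hold the core letters bound by HIF factors. Each is the 250 bases before the RefSeq start (GRCh38.p14), written on the gene's strand, with matches to ACGTG or GCGTG on either strand in capitals (CACGT and CACGC are the reverse complements). The windows are chr9:35673678-35673927 (CA9, plus strand), chr1:203026241-203026490 (PPFIA4, plus strand), chr7:45921273-45921522 (IGFBP3, minus strand) and chr11:10304823-10305072 (ADM, plus strand).
CA9: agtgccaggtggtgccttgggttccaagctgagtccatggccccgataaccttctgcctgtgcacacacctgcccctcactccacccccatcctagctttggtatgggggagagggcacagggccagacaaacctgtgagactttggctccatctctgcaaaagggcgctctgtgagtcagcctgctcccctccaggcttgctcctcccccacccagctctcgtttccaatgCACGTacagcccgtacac
PPFIA4: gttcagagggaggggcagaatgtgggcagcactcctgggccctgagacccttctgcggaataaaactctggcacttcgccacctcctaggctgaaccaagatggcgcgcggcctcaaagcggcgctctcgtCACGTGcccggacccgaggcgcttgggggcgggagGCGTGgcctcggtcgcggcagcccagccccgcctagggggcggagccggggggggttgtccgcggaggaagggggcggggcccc
IGFBP3: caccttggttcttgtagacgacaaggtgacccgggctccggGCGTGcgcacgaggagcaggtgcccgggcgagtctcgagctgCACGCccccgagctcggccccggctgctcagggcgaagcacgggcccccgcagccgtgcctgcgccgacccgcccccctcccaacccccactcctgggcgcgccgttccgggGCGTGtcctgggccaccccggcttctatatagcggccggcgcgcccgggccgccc
ADM: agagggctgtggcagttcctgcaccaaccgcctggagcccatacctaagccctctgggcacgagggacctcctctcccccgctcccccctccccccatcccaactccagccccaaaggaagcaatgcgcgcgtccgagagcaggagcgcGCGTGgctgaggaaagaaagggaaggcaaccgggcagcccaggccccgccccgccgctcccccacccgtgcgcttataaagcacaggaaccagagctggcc
CA9 and ADM held 1 match each, and PPFIA4 and IGFBP3 held 3 each. In PPFIA4, 2 matches overlap in the palindrome cacgtg. A RefSeq promoter was matched for 8199 of the 10080 genes. A match was found in 31 of 37 hypoxia genes with a promoter (83.8%), in 8 of 9 of those lower at 1.5-fold (88.9%), in 59.3% of all 8199 and in 43.1% of the 27305 promoters in the RefSeq table. Among all 282 lower genes with a promoter the share was 49.3%, and among 143 higher genes 49%. A match describes letters and shows no binding.

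Lipid genes differed by list, and fatty acid and triglyceride genes were on the higher side. Of 32 sterol sensing, uptake and export genes, 3 were higher (9.38%) and 2 lower (6.25%) at 1.5-fold. Of 18 cholesterol synthesis enzymes, 1 was higher and 0 lower, while 15 lay above 0 (median 0.29). Xenobiotic and steroid enzymes had 2 of 50 higher (4%) and 3 lower (6%). Among 63 fatty acid and triglyceride genes, 5 were higher and 1 lower at 1.5-fold. The acyl-CoA synthetase ACSL1 had 384, 878 and 44 reads (log2 ratio 1.43, interval 1.26 to 1.61), LPL, which releases fatty acids from lipoproteins, 239, 479 and 259.8 CPM (log2 ratio 1.00, interval 0.95 to 1.06), hormone-sensitive lipase LIPE 0.87 and the phosphatidate phosphatase LPIN1 57.9, 91.4 and 53.8 CPM (0.66). ACSL1 was lowest in SIRT7-KO. The ketone enzyme BDH1 was lower (-0.78). In sterol handling, the synthase HMGCS1 (141, 223 and 122 CPM), MYLIP, a ligase that degrades the LDL receptor (0.91), and the sterol carrier STARD4 (0.62) were higher, and ABCA1 and INSIG2 (-0.59), which retains SREBP factors in the ER, lower. Among xenobiotic and steroid enzymes, the carboxylesterase CES3 (99, 214 and 113 reads) and CYP2U1 (52, 107 and 34 reads) were higher, and aldehyde dehydrogenase ALDH2 (19.5, 8.99 and 19.1 CPM; -1.11) and HSD17B12 (57.8, 27.6 and 23.2 CPM; -1.07), an enzyme of very-long-chain fatty acid synthesis, lower. Amino acid genes had 1 of 58 lower, proline dehydrogenase PRODH (108, 35 and 39 reads), and none higher.

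Genes listed for the placenta after their values were seen had 9 of 23 higher and 3 lower at 1.5-fold (median 0.25). The higher ones include LPL, GATA2 and DLX3, which also belong to other lists described above, so these counts overlap. CGA had log2 ratio 0.96, interval 0.91 to 1.00 and was above the control in both knockouts. PLAC8 had 32.0, 73.8 and 15.4 CPM (1.21), the relaxin relative INSL4 320, 542 and 139 reads (1.00) and the pregnancy glycoprotein PSG4 193, 318 and 168 reads (0.96). PLAC8 and INSL4 were highest in USP39-KO and lowest in SIRT7-KO. PEG10 (-2.84) was the lowest of the 3 lower genes. The others were the pregnancy protease PAPPA2, with 31.4, 14.6 and 17.8 CPM (-1.10), and the estradiol-forming HSD17B1, with 101, 49 and 75 reads (-0.80). ALPP had -0.34.

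Core processes were nearly flat. None of 51 replication genes, 69 mitosis genes or 31 p53 target genes passed 1.5-fold in either direction, with medians of 0.03, 0.04 and 0.05. Among cyclins, CDKs and their inhibitors, CDKN1C, an imprinted inhibitor, and CDKN2B were lower (-0.82 and -0.61). Interferon-stimulated genes had 5 of 38 lower, led by ISG15 (232, 74 and 177 reads; -1.40) and the ligase HERC5 (167, 62 and 16 reads; -1.18), and 1 higher, the restriction factor TRIM5 (0.69). The small heat shock protein HSPB8 (108, 176 and 124 CPM; 0.70), the heat shock factor HSF2 (0.66), the unfolded-protein sensor ERN1 (0.61) and the autophagy kinase ULK2 (129, 238 and 90 reads; 1.12) were higher. They were 2 of 38 heat shock genes (5.26%), 1 of 50 ATF4 and unfolded-protein response genes (2%) and 1 of 75 lysosome and autophagy genes (1.33%). Over all genes the higher share was 1.88%, and 0 genes of these lists were lower.

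A pair of single-gene differences stood apart from their own machinery, in lists made after the values were seen. RNPC3, a protein of the U11/U12 particle of the minor spliceosome, had 1030, 348 and 732 reads (log2 ratio -1.32, interval -1.51 to -1.15). The other 9 such proteins ran from -0.29 in ZRSR2 to 0.44 in SNRNP35, with a median of 0.19. In the list of fission and fusion genes, MFF passed 1.5-fold (log2 ratio 1.53). So did ATAD1, listed there although it is an extractor of mislocalised tail-anchored proteins (176, 298 and 183 CPM, log2 ratio 0.76). The other 17 ran from -0.33 to 0.32. DNM1L, the dynamin that MFF recruits, had 0.03 and the fission protein FIS1 -0.02.

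Of 7433 protein-coding genes in none of the 66 lists, some of which (MFF, PLAC8 and MAML2 among the strongest) are in lists made later, the strongest differences by interval were mostly at low counts. PRUNE2, a brain-enriched gene, had 28, 322 and 246 reads (log2 ratio 3.74, interval 3.20 to 4.38), and the transposase-derived PGBD5 39, 247 and 122 reads (2.89), both above the control in both knockouts. GPNMB, a lysosome-associated glycoprotein, had 287, 661 and 637 reads (1.44) and GAS7 85, 253 and 93 reads (1.81). IGFN1 (121, 281 and 10 reads) and VEPH1 (263, 548 and 81 reads) were high in USP39-KO and low in SIRT7-KO. On the lower side, the RNA-binding RBPMS had 162, 12 and 19 reads and the cortactin-binding CTTNBP2 114, 11 and 6 reads, low in both knockouts. The scramblase PLSCR4 (120, 17 and 137 reads), the glycosyltransferase B3GNT3 (105, 19 and 127 reads) and CYFIP2, a subunit of the actin-regulating WAVE complex (475, 121 and 887 reads), were low in USP39-KO alone.

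Position on the chromosome carried a pattern that the gene lists did not show. In 188 windows of about 50 neighbouring genes, the median ratio ran from -0.10 to 0.19 except in 3 adjacent windows of chromosome 1, at -0.38 to -0.26. The genes from MTF2 to NBPF8 (chromosome 1, 93079235 to 120467739 in GENCODE 29 on GRCh38, 27.4 Mb of the short arm) numbered 113, and 106 of them (93.8%) lay below 0. Their median ratio was -0.38, or 0.767 times the control, and the 49 well-counted genes among them had a median of -0.37. The 20 genes before MTF2 had a median of 0.01, the 20 after NBPF8 a median of -0.12 with 14 below 0, and all genes of chromosome 1 outside the block a median of 0.00. In SIRT7-KO the same 113 genes had a median of -0.01, but other stretches were shifted there: 3 adjacent windows of chromosome 1 beyond the block (VPS72 to PRRC2C) had medians of 0.31 to 0.39, and the last window of chromosome 14 had -0.45. The ends of the block were chosen from these values. The block held 21 of the 381 genes lower at 1.5-fold and 7 of the 116 at 2-fold, and none of the higher ones. RNPC3, SORT1, SLC16A4, IGSF3, EPS8L3 and F3 lie inside it, as do NRAS (-0.42) and NOTCH2. PHGDH, the first enzyme of serine synthesis, was an exception at 0.08. Of the lists, the small GTPase regulators had 2 of their 14 lower genes in the block, and no other list had more than 1. Genomic DNA was not measured, and what goes with the block was not tested.

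Chromosome 7 was shifted the other way and over its whole length. Its 456 genes had a median of 0.13, with 73.9% above 0, and its 9 windows ran from 0.05 to 0.19. SIRT7-KO had a median of 0.06 there. Chromosome 16, with 507 genes, had a median of 0.07 in USP39-KO. The higher genes EN2 and SCIN lie on chromosome 7, and so do IGFBP3 and PEG10, which were lower. PEG10 (chromosome 7, 94656325 to 94669695, plus strand) had 114, 15.9 and 117 CPM (log2 ratio -2.84, interval -3.03 to -2.66). Its imprinted neighbour SGCE, which overlaps its start on the other strand, had 27.9, 15.6 and 20.5 CPM (-0.84). No source used here says whether the counting read strand, so reads in the overlap cannot be told apart. The next genes on either side, CASD1 and PPP1R9A, had 0.13 and -0.37.

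**Figure D5:**
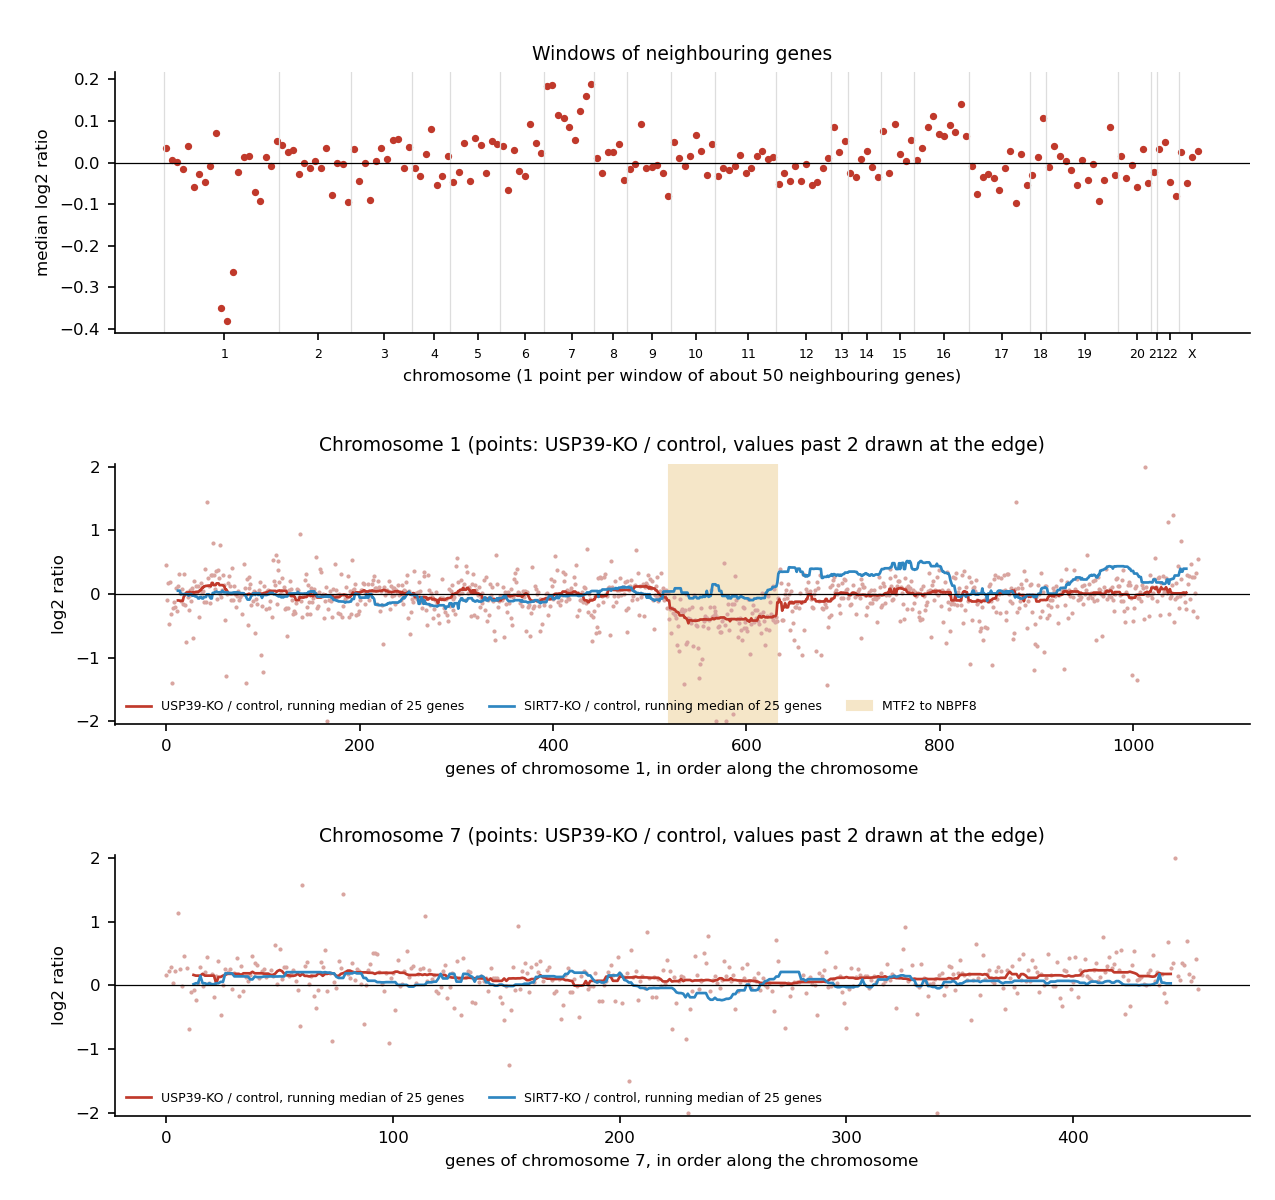
Top, the median log2 ratio of USP39-KO to control in 188 windows of about 50 neighbouring genes, by chromosome. Middle and bottom, genes of chromosomes 1 and 7 in order, with running medians of 25 genes for USP39-KO (red) and SIRT7-KO (blue). The shaded genes from MTF2 to NBPF8 (113 genes, median -0.38) lie below the genes before them in USP39-KO, SIRT7-KO lies above 0 over genes to the right of them, and chromosome 7 stays slightly above 0 (median 0.13) along its length.

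Structural features of genes went with the ratio only weakly. Across 9969 genes with an annotation, Spearman correlations of the ratio with exon number, transcript length and GC content were -0.068, -0.070 and -0.065. The correlation with mean CPM in the compared libraries was 0.099, and the fifth with the lowest mean CPM had a median ratio of -0.07. These are descriptions across genes of the same 2 libraries, which are not independent replicates. The fifth of genes with the most exons, 17 or more, had a median of -0.03, and the fifth with the fewest, up to 4, had 0.01. Promoters with fewer than 5 CpG dinucleotides were found in 5.12% of the 8199 genes, in 12.4% of genes lower and 11.2% of genes higher at 1.5-fold, and in 16 of 83 lower (19.3%) and 5 of 31 higher genes (16.1%) at 2-fold. The letters TATAAA at -40 to -16 before the start stood in 1.45% of the 8199 promoters, in 4.26% of those of genes lower and 7.69% of those of genes higher at 1.5-fold, and in 5 of 83 (6.02%) and 2 of 31 (6.45%) at 2-fold. Both features were thus more frequent among differing genes in both directions, and these shares were not tested. The groups were not matched for expression level, with which the calls also went.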

How the data were processed

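RNA-seq was read from 3 libraries of cells labelled Hep3B: control, USP39-KO and SIRT7-KO, with 1 library per group and 16151522 to 19427940 counts each. Trizol extraction and a TruSeq kit were used, per the labels' protocols. The authors deposited 1 table with read counts and FPKM per gene, per the file headers. The counts are whole numbers that were not normalized before they were deposited. The deposited FPKM equal the counts scaled by the listed gene length (in bases, deposited beside them) and the library total, checked to a relative difference of at most 1.4e-07, so only the counts were used. Not given in the sources used here are the aligner, counting program, strand setting, genome build and annotation, and the treatment of reads with several placements. Values of genes that overlap a neighbour or have a close copy are therefore uncertain. The limit that 0 reads allow is 3 counts, which is 0.154 CPM for control, 0.182 for USP39-KO, 0.184 for SIRT7-KO.

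Symbols and positions were taken by Ensembl number in GENCODE 29 and a gene name table, and 9963 of 10080 genes had a symbol. Identifiers without a symbol held 0.379% of control counts and stayed in all totals. Scaling used TMM factors of edgeR 4.0.16 over the 3 libraries. Log2 ratios used a prior of 0.5 counts, and 95% intervals are Clopper-Pearson intervals of the 2 counts, computed in SciPy 1.17.1. Intervals cover the counting error of the 2 counts only. They treat each read as independent, although PCR copies were not marked by molecular identifiers. No dispersion can be estimated from 1 library a side, so no edgeR or DESeq2 test was run. DESeq2 1.42.0 supplied size factors as 1 alternative scaling. The ratio and interval steps were tested on simulated counts.

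Lists are described by counts past each size and by medians beside those of all genes. Named from each list are up to 4 genes each way past 1.5-fold with the interval bound farthest from 0. Also named are 12 genes each way by difference in CPM, 12 each way by ratio among genes with a mean of at least 1000 counts, and 10 each way in no list. Other genes, such as ID1, NOTCH1, DNM1L, INSL4, NRAS, MTHFSD and PHGDH, were picked with their values known. Some genes that these rules name are not reported here. The genes taken, the 66 lists and the rules were chosen with earlier results of these data known, and 5 further lists (placenta, BMP, Notch, U11/U12 and organelle fission) after the values were seen. RefSeq promoters (GRCh38.p14) were matched by symbol.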

Additional observations from a re-analysis of the deposited data

How the results depend on the processing

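No paired analysis was possible because each group has 1 library. USP39 was at -0.55 with library totals, -0.54 with TMM from the compared libraries and -0.53 with DESeq2 size factors. No scaling moved a count of genes by over 1.5 times, and the median of all genes shifted by at most -0.02 on the log2 scale. The counts depended on the count minimum. With at least 100 counts in both libraries, 25 genes were higher and 41 lower at 2-fold, and 224 lower at 1.5-fold. With at least 100 counts in SIRT7-KO, 76 were lower at 2-fold. With no minimum beyond 1 read, 228 were higher and 461 lower at 2-fold, and 445 and 846 at 1.5-fold, since more genes of few reads entered. Asking the whole interval to lie past the size left 23 higher and 66 lower at 2-fold, and 73 and 172 at 1.5-fold, by its construction. Without the chromosome 1 block from MTF2 to NBPF8, an alternative added after the values were seen, 360 genes were lower at 1.5-fold and 109 at 2-fold. Without chromosome 7, also added then, 174 were higher at 1.5-fold.

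Of 224 calls at 1.5-fold among named genes, 6 fell short with library totals (GATA2, JMJD6, KLF4, SEMA6D, SLC25A16 and ZNF816), 2 with DESeq2 size factors (DNMT3A and INSIG2) and 4 with a prior of 5 counts (these 2, SEMA6D and ZNF816). No called gene changed direction under any of these scalings or the larger prior. With 1 library a side, culture, passage, clone and library preparation cannot be told apart from the knockout. Depth limits genes near 100 counts most, where a 1.5-fold ratio can come with an interval that nearly reaches 0.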
